A study of Mus musculus with 9 samples.

Results

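Apoe was followed in the aorta of 9 male C57BL/6J mice, on 9 one-colour arrays with 1 mouse each. It is 1 of 49 genes whose probe the deposited files pair with a transcript accession that could be given a gene symbol. The gene was chosen by its probe, A_51_P171999, which the files pair with the transcript NM_009696 and which was printed as 10 spots on every array. The vehicle group (n = 3) carries no diet in its labels. The DIO group (n = 3) received a high-fat diet for 4 months and no sitagliptin. The DIO+sitagliptin group (n = 3) was fed the high-fat diet and received oral sitagliptin at 3 mg/kg per day, with no length of diet or treatment in its labels. Ages are not given in the sources used here. The labels name no engineered allele in any group. By its title, the series concerns RNA changes in the obese aorta under sitagliptin, an oral inhibitor of the incretin-degrading peptidase DPP-4.

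Apolipoprotein E is a secreted lipid-binding protein. On remnant lipoproteins it is the ligand through which receptors of the liver clear these particles from plasma. The liver makes most of the circulating protein. Macrophages also secrete it, including those of the artery wall, where it accepts cholesterol leaving the cell, and its gene is a target of the liver X receptors. Mice that lack Apoe have high plasma cholesterol and form atherosclerotic plaques. In the RefSeq gene table Apoe lies between Apoc1, which encodes another apolipoprotein, and Tomm40, which encodes a mitochondrial import pore. RefSeq lists 4 curated transcripts of Apoe, and which of them the probe detects besides NM_009696 was not analysed here.

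The arrays differed in overall signal within groups. Between 61.7% and 82.9% of spots per array were marked well above background. The median probe read 12.8 to 37.6 intensity units. The file headers place the scans of vehicle 3 and DIO+sitagliptin 3 on 20 November 2020 and those of the other 7 arrays on 12 November 2020, so no DIO array has the later date. A scan date does not say when RNA was extracted.

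Apoe was read with little error between the spots of an array. Error from labelling or hybridization is shared by these spots and was not measured. In vehicle mice the 10 spots averaged 1110, 349 and 1184 intensity units in replicates 1, 2 and 3. In DIO mice they averaged 855, 407 and 206 units. In DIO+sitagliptin mice they averaged 346, 190.5 and 245 units. Vehicle 1, vehicle 3 and DIO 1 were the bright arrays, and the remaining 6 lay between 190.5 and 407 units. The spots of an array agreed closely, with a coefficient of variation of 2.16% (DIO 1) to 5.28% (DIO+sitagliptin 2). All 10 spots were marked well above background on each of the 9 arrays, none was saturated, and 1 spot of DIO 3 carried a population outlier mark and was kept.

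**Figure D1:**
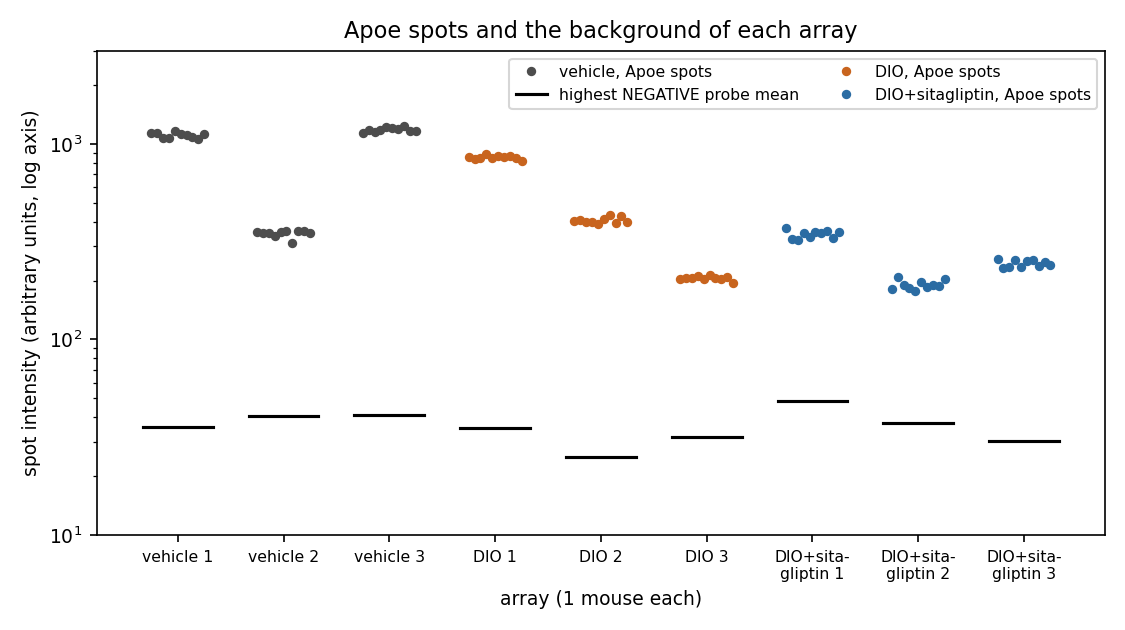
Intensity of the 10 Apoe spots on each of the 9 arrays (points; arbitrary units on a log axis) and the highest mean of the 15 probes named NEGATIVE on the same array (black bars). The spots of an array lie close together, between 178 and 1229 units in all, and every Apoe spot lies above the bar of its array.

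Apoe stood clear of background in all 9 aortas. The 15 probes named NEGATIVE, 3 spots each, are taken from the array design as a measure of background. Their highest mean ran from 25.1 units on DIO 2 to 48.6 units on DIO+sitagliptin 1. The mean Apoe intensity was 31.0, 8.56 and 28.8 times that value in the 3 vehicle arrays. It was 24.1, 16.2 and 6.49 times in DIO, and 7.12, 5.11 and 8.14 times in DIO+sitagliptin. The dimmest Apoe reading, that of DIO+sitagliptin 2, therefore still exceeded the highest NEGATIVE mean more than 5.1-fold. Against the single brightest NEGATIVE spot the ratio ran from 4.61 to 29.6. No group mean of Apoe rested on readings at background.

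Its place among all probes needs no scaling between arrays. Quantile normalization, used further below, rests on the same ranks, so the 2 views are not independent. Apoe was brighter than 94.8%, 88.0% and 94.6% of the 60823 probes in vehicle. It was brighter than 92.7%, 91.2% and 88.0% in DIO, and than 91.3%, 85.5% and 86.2% in DIO+sitagliptin. Brightness of different probes also depends on the probe, so these positions compare arrays, not the abundance of genes. Vehicle 2 and DIO 3 held nearly the same position, and the 3 groups overlapped.

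For the comparisons, log2(intensity + 1) was quantile normalized over the 9 arrays. Normalized log2 Apoe was 10.30, 8.07 and 10.19 in vehicle, with a mean of 9.52 ± 1.26 (SD, n = 3). It was 9.40, 8.94 and 8.08 in DIO, with a mean of 8.81 ± 0.67 (SD, n = 3). It was 8.95, 7.54 and 7.69 in DIO+sitagliptin, with a mean of 8.06 ± 0.77 (SD, n = 3). The means thus stood in the order vehicle, DIO, DIO+sitagliptin. Neighbouring groups in this order did not differ beyond their spread, because the lowest vehicle array lay below all 3 DIO arrays and the highest treated array lay above 2 of them.

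**Figure D2:**
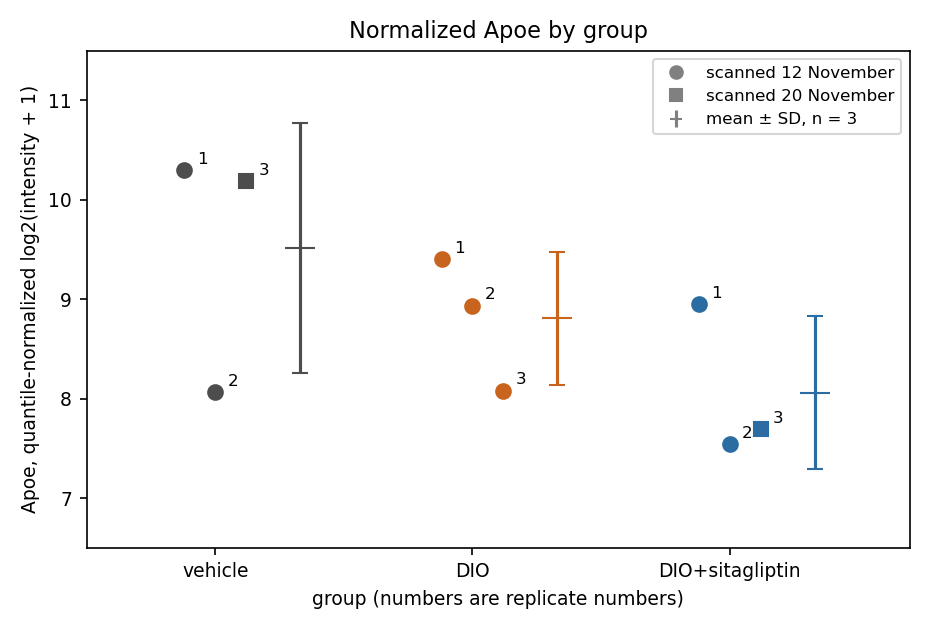
Quantile-normalized log2(intensity + 1) of Apoe per array by group, numbered by replicate, with the mean ± SD (n = 3) beside each group. Circles were scanned on 12 November and squares on 20 November. The group means are 9.52, 8.81 and 8.06, and vehicle 2 at 8.07 lies below DIO 3 at 8.08 and within the range of the treated group.

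The high-fat diet comparison asks whether aortic Apoe differed in obese mice. Mean Apoe was lower in DIO than in vehicle by a log2 difference of -0.71 ± 0.71 (SE; 95% interval -2.29 to 0.87), or 0.611 of the vehicle level. The difference did not pass (limma adjusted p = 0.925, unadjusted 0.341). DIO was the lower array in 6 of the 9 pairs of a DIO and a vehicle array, and the two-sided exact permutation p was 0.5, where 3 against 3 arrays cannot go below 0.1. Over all 49360 probes tested, limma called 0% at an adjusted p under 0.05 and 0.717% (354 probes) had an unadjusted p under 0.05. In 46.3% of probes the DIO mean was the lower one, and 9.93% had a difference at or below that of Apoe. A difference as low as that of Apoe was therefore common in this comparison.

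The value of this comparison rested on a few arrays. It was -1.44 without vehicle 2, -0.32 without vehicle 1, -0.37 without vehicle 3 and -0.35 without DIO 3. Among the arrays scanned on 12 November, 2 vehicle against 3 DIO, it was -0.37 ± 0.74 (SE). It was -1.25 where arrays were scaled to a common median in place of quantile normalization. The direction was the same in each case. RNA of a whole vessel was measured, so fewer Apoe-expressing cells and less Apoe RNA per cell cannot be told apart in this or any later comparison.

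The sitagliptin comparison set treated against untreated obese mice. Mean Apoe was lower with the drug by a log2 difference of -0.75 ± 0.71 (SE; 95% interval -2.33 to 0.84), or 0.596 of the DIO level. It did not pass (limma adjusted p = 1.000, unadjusted 0.319), with the treated array lower in 7 of 9 pairs and an exact permutation p of 0.3. The pairs that went the other way were DIO+sitagliptin 1 against DIO 2 and against DIO 3. The first of these was a narrow one, at 8.95 against 8.94. Of all probes, 0% were called and 0.231% (114) had an unadjusted p under 0.05. The treated mean was the lower one in 54.9% of probes, and 4.84% had a difference at or below that of Apoe. The difference was -0.45 without DIO 1, -1.19 without DIO+sitagliptin 1 and -0.49 without DIO+sitagliptin 2. Among the arrays of 12 November, 3 DIO against 2 treated, it was -0.56 ± 0.74 (SE). This comparison and the high-fat diet comparison share the 3 DIO arrays, so their values are not independent of each other.

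Treated obese mice against vehicle mice gave the lowest of the 3 differences. Its value is the sum of the other 2, so it is not independent of them. Mean log2 Apoe differed by -1.46 ± 0.71 (SE; 95% interval -3.04 to 0.13), or 0.364 of the vehicle level. The difference did not pass over all probes (limma adjusted p = 1, unadjusted 0.0676). The treated array was the lower one in 8 of 9 pairs, the exception being DIO+sitagliptin 1 against vehicle 2, and the exact permutation p was 0.2. Limma called 0% of probes and 1.44% (713) had an unadjusted p under 0.05. A difference at or below that of Apoe was found in 0.581% of probes, while the treated mean was the lower one in 49.6%. Apoe held place 1201 of 49360 when probes were ordered by p. Among the arrays of 12 November, 2 against 2, the difference was -0.94 ± 0.81 (SE).

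Whether these 2 groups overlapped depended on the scaling between arrays. As deposited, every treated array read lower than every vehicle array, but the gap between vehicle 2 and DIO+sitagliptin 1 was 2.57 units, at 349 and 346 units. The spots of these 2 arrays overlapped, at 313 to 359 and 324 to 373 units. With no normalization the log2 difference was -1.61 and the exact permutation p 0.1, the smallest these 6 arrays can give. After quantile normalization vehicle 2 lay 0.88 below DIO+sitagliptin 1 on the log2 scale. After median scaling vehicle 2, at 8.00, lay above DIO+sitagliptin 1, at 7.78. It then lay 0.70 below DIO+sitagliptin 3, at 8.70, so the array that made the groups overlap changed with the scaling. The median probe of vehicle 2 read 32.6 units, that of DIO+sitagliptin 1 37.6 units and that of DIO+sitagliptin 3 13.5 units. Without normalization, the treated arrays were all lower than the vehicle arrays for 1.36% of probes, Apoe among them. After quantile normalization this was so for 1.71% of probes, and Apoe was not among them. The median difference over all probes was 0.19 without normalization, -0.09 with median scaling and 0.004 with quantile normalization. Relative to that median, Apoe stood at -1.80 without normalization or with median scaling and at -1.46 with quantile normalization. In the high-fat diet comparison the median over all probes was 0.26 without normalization, and Apoe stood at -1.15 relative to it.

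Across all 3 groups, the moderated F-test of limma gave an unadjusted p of 0.173 for Apoe and an adjusted p of 0.998. Group membership accounted for 37.7% of the variation of normalized log2 Apoe over the 9 arrays. Over the 280 ways to split them into 3 groups of 3, the exact permutation p of that share was 0.232. On intensities as deposited the share was 47.2% and the exact permutation p 0.0857. The F-test called 0% of all probes, and 211 had an unadjusted p under 0.05.

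The spread that limits these comparisons lay between animals or arrays and not between spots. Within an array the SD over Apoe spots was 0.03 to 0.07 on the log2 scale. Within groups the residual SD between arrays was 0.94. The median residual SD was 0.63 over all kept probes and 0.84 over the 2081 other probes whose mean lay within 0.5 log2 units of Apoe, 59.0% of which varied less than Apoe. Among the 40 named genes kept, 8 varied more. In the fit without a replicate block the 95% interval of an Apoe difference reached 1.58 log2 units to each side, a factor of 3.00. Same-numbered vehicle and DIO+sitagliptin arrays deviated together over all probes, and the treated array was the lower one for Apoe in all 3 such pairs, by log2 differences of -1.35, -0.52 and -2.50. The labels give no pairing of mice between groups beyond the replicate number. With that number as a block in all 9 arrays, the interval of the difference of DIO+sitagliptin from vehicle ran from -2.74 to -0.17. In the 6 arrays of these 2 groups alone it ran from -2.38 to -0.53, reaching 0.93 log2 units to each side, a factor of 1.90. The difference in these 6 arrays still did not pass over all probes (limma adjusted p = 0.647), and 7.66% of them had an unadjusted p under 0.05 in that fit.

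**Figure D3:**
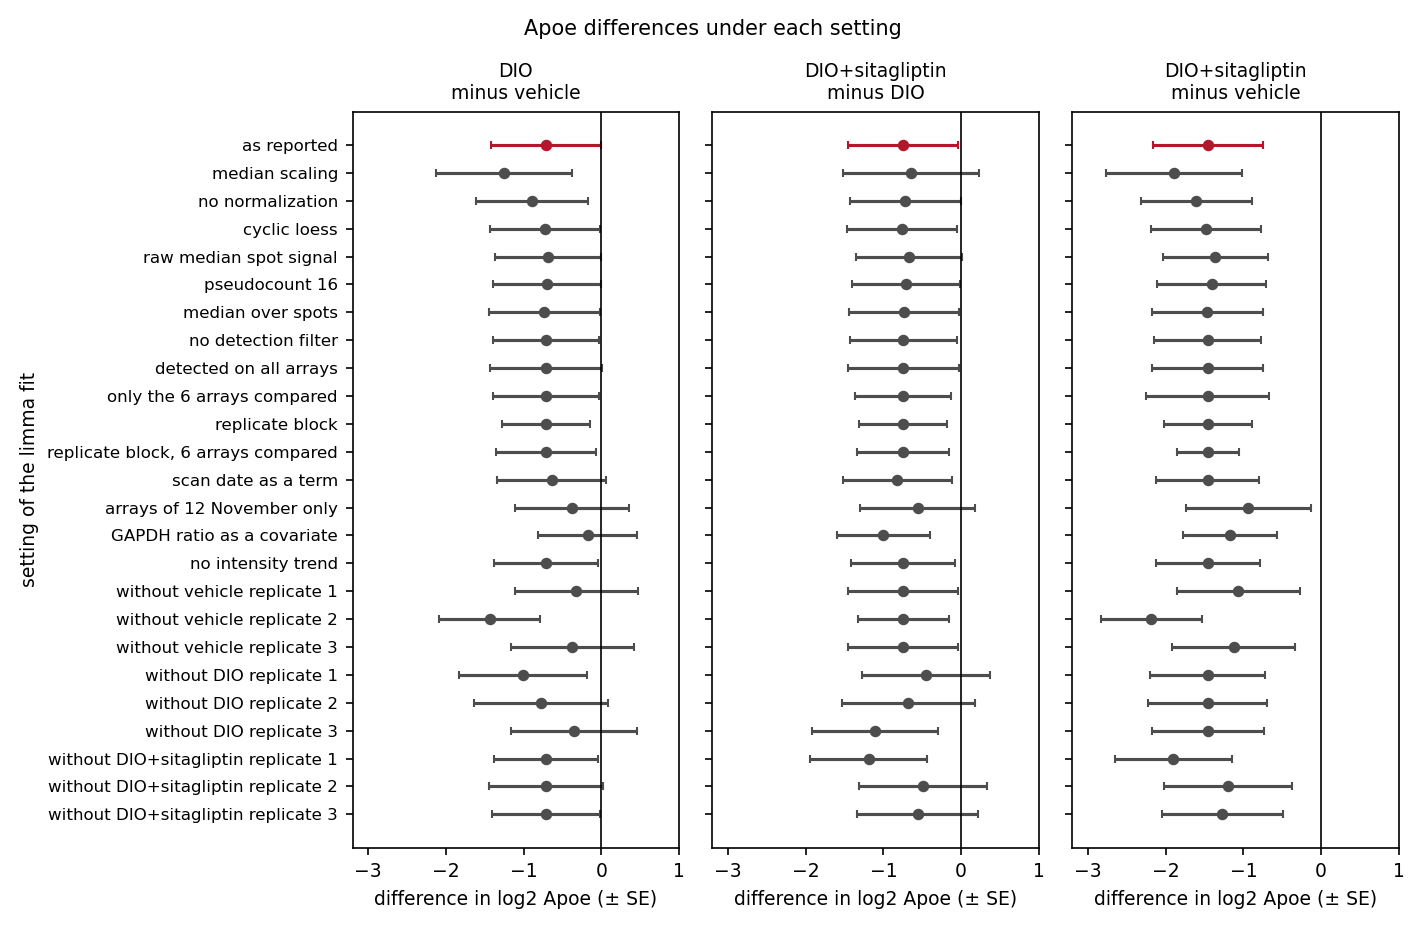
Difference in log2 Apoe (points, with bars for ± SE) in the 3 comparisons under the reported limma fit (red) and each other setting (grey), including fits without 1 array. Every point lies below 0, and none reached an adjusted p under 0.05. Settings that can change only the SE repeat the reported point.

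Apoe was also set beside control features of the same arrays. The array carries features named 3 and 5 for the mouse housekeeping gene GAPDH. The log2 ratio of 5 over 3 is given here as a possible measure of differences in RNA or labelling. What the 2 names stand for is not given in the sources used here. The vehicle arrays had ratios of 1.49, 0.02 and 2.47. The DIO arrays had 1.61, -0.43 and -0.15, and the treated arrays had 1.19, -0.49 and 1.73. The feature named 5 was brightest on vehicle 3, DIO 1 and vehicle 1, at 509, 332 and 303 units. The feature named 3 read 91.3, 108 and 107.5 units there. Apoe was brightest on the same arrays. The ratio of DIO+sitagliptin 1 rests on a feature named 3 near background, at 52.8 units beside a highest NEGATIVE mean of 48.6 units. The arrays with the 4 lowest ratios were vehicle 2, DIO 2, DIO 3 and DIO+sitagliptin 2, and their normalized log2 Apoe was 8.07, 8.94, 8.08 and 7.54. Of the other 5 arrays, vehicle 1, vehicle 3, DIO 1 and DIO+sitagliptin 1 had log2 Apoe of 10.30, 10.19, 9.40 and 8.95. DIO+sitagliptin 3 combined a ratio of 1.73 with a log2 Apoe of 7.69. Low ratios thus occurred in 1 vehicle, 2 DIO and 1 treated mouse. With the ratio as a covariate, the difference of DIO from vehicle was -0.17 ± 0.64 (SE), that of DIO+sitagliptin from DIO -1.0003 ± 0.60 and that of DIO+sitagliptin from vehicle -1.17 ± 0.60. Whether this ratio reflects RNA quality is not known, so the part of RNA quality in the Apoe differences was not tested.

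**Figure D4:**
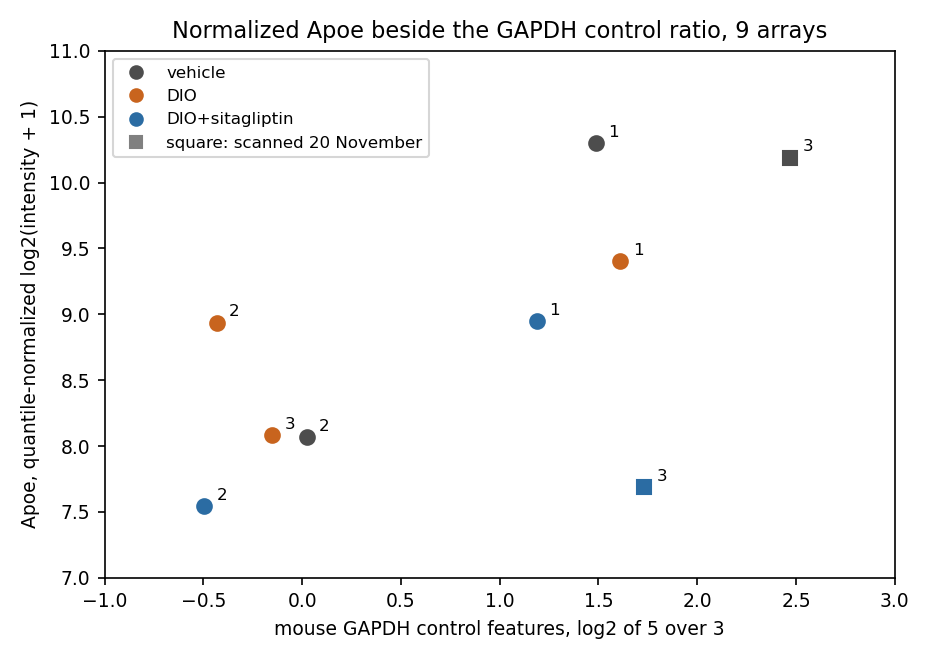
Quantile-normalized log2 Apoe (vertical) against the log2 ratio of the mouse GAPDH control features named 5 and 3 (horizontal) for the 9 arrays, coloured by group and numbered by replicate; squares were scanned on 20 November. The 4 arrays with the lowest ratios have Apoe values of 7.54 to 8.94, and DIO+sitagliptin 3 lies apart with a ratio of 1.73 and an Apoe value of 7.69.

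The other named genes were ordered by how closely they followed Apoe. The measure was the root mean square difference between log2 values over the 9 arrays, each gene centred on its own mean. A gene with the same value on all arrays would score 0.97, and 17 of the 39 genes compared scored lower. The nearest was Acaa2, the last enzyme of mitochondrial fatty acid oxidation, at 0.50. Gpi1, a glycolytic isomerase, followed at 0.60, H2-Q7, a class Ib histocompatibility gene, at 0.63, Hspb7, a small heat-shock protein of heart and muscle, at 0.65 and H2-M2, another histocompatibility gene, at 0.75. All arrays share their normalization and scan dates between genes, so this likeness is a description of the arrays.

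Each of the 5 genes had its lowest vehicle value in replicate 2, as Apoe did. They were chosen for likeness to Apoe over these same arrays. Values and differences shared with Apoe therefore follow in part from that choice and are no independent support. Acaa2 had normalized log2 values of 7.18, 5.85 and 7.22 in vehicle. It had 6.98, 6.32 and 6.04 in DIO, and in the treated mice 6.16, 6.17 and 5.17. H2-Q7 had 7.48, 4.90 and 8.28 in the vehicle mice. Its values were 6.43, 5.62 and 4.58 with the high-fat diet alone and 5.60, 4.31 and 6.08 with the drug added. It parted from Apoe on the arrays of 20 November, where it was the higher of the 2 relative to its mean, and on the 7 arrays of 12 November alone it was nearest to Apoe at 0.22. Gpi1 and Acaa2 read above the highest NEGATIVE probe on 8 of 9 arrays each and H2-Q7 on 6 of 9, while Hspb7 and H2-M2 did so on all 9. None of the 5 genes passed in any of the 3 comparisons (limma adjusted p of 0.925 or more). Their differences of DIO+sitagliptin from vehicle were -0.92 ± 0.51 (SE) for Acaa2, -1.14 ± 0.55 for Gpi1, -1.56 ± 0.85 for H2-Q7, -0.37 ± 0.52 for Hspb7 and -0.80 ± 0.52 for H2-M2.

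**Figure D5:**
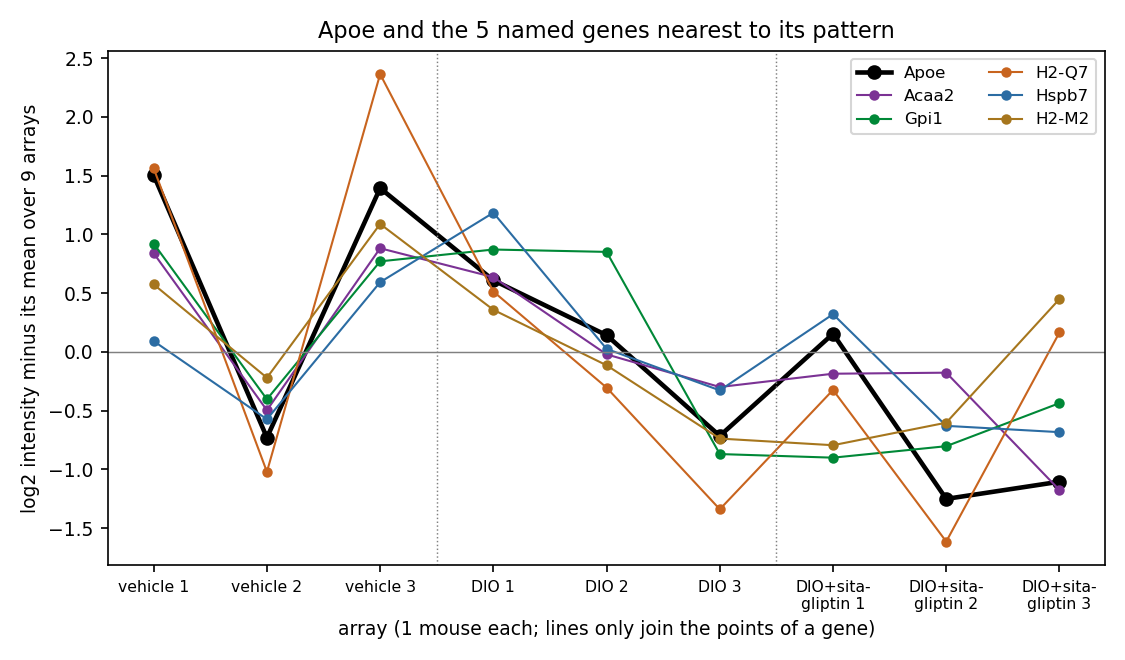
Normalized log2 intensity of Apoe (black) and of the 5 named genes nearest to it, each minus its own mean over the 9 arrays (1 mouse each; lines only join the points of a gene). All 6 genes are below their mean on vehicle 2 and DIO+sitagliptin 2, and H2-M2 and H2-Q7 are above theirs on DIO+sitagliptin 3, where Apoe is at its second lowest value.

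Actb, the cytoskeletal beta-actin, is named here after its values were seen, because it came first when genes were ordered by Pearson distance, which ignores the size of the swings. It read 1903, 222 and 4287 units in the vehicle mice. Its readings were 1264, 131 and 73.9 units in DIO, and in the treated mice 498, 99.2 and 190.6 units. Its SD over the 9 arrays was 2.07 on the log2 scale, wider than that of Apoe, so it scored 1.12 on the main measure. Actb and Apoe shared their 3 brightest arrays (vehicle 1, vehicle 3 and DIO 1). Actb was also the brighter of the 2 on these arrays and on DIO+sitagliptin 1.

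The partners of Apoe could not be followed by name. Of 106 genes in 11 lists (apolipoproteins, apolipoprotein E receptors, cholesterol efflux, cholesterol synthesis, and markers of macrophages, smooth muscle, endothelium, fibroblasts, adipocytes, hepatocytes and blood), Apoe was the only one with a named probe. The receptor Lrp1, the efflux pump Abca1 and the macrophage marker Cd68 are therefore not analysed here. For the same reason the aortic label could not be checked against the smooth muscle or endothelial markers. Whether the share of macrophages or other Apoe-making cells differed between these aortas was not tested.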

How the data were processed

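Total RNA of each aorta was converted to Cy3-labelled cRNA and hybridized, per the labels' protocols. The authors deposited spot intensity, background-subtracted and detrended within each array by Agilent Feature Extraction 11.0.1.1, and flags of 0 or 1 per spot, per the file headers, which record no normalization between arrays and name the mm9 build. No coordinates are given, since the gene tables used are of GRCm38.p6. RefSeq named 46 and GENCODE 3 of 50 probes with an accession. Here, log2(intensity + 1) was averaged over the spots of a probe and quantile normalized over 60823 probes outside the control features. Probes were kept where at least 0.5 of spots were marked well above background on at least 3 arrays (49360 probes, 40 named genes). A fold change is on the log2(intensity + 1) scale.

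Differences come from limma 3.58.1 (R 4.3.3), fitted once to all 9 arrays with an intensity trend in the prior. Benjamini-Hochberg adjustment ran over all kept probes of a comparison. Calls were made at an adjusted p under 0.05. The fit was also run on simulated data with independent noise for each probe and array. The real arrays deviated together in part, so that run does not show how the fit performs on them. Exact permutation tests are two-sided and concern Apoe alone. The other steps used numpy 2.4.6, pandas 2.3.3 and matplotlib 3.10.9 under Python 3.11.15. The number of arrays limits the precision.

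Apoe, the gene lists and the alternatives were chosen with earlier results of these data known. Named genes are Apoe, the 5 named genes with the smallest root mean square difference from it, and listed genes with a kept named probe; other genes are named where a result on Apoe turns on them. Alternatives covered normalization, intensity column, pseudocount, spot summary, filter, arrays fitted, replicate number, scan date, GAPDH ratio and variance prior. Replicates are separate mice, per the series' design text. Same-numbered vehicle and DIO+sitagliptin arrays deviated together (correlations of 0.67, 0.65 and 0.76 over probes, all above 0.1); pairs with DIO included negative values. Scan date is shared by the third pair.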

Additional observations from a re-analysis of the deposited data

How the results depend on the processing

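The 3 Apoe differences kept their negative sign, and none passed, under each of 24 alternatives per comparison. Many of these could not move the value of a difference. Changes of filter, variance prior or replicate block, and leaving out arrays of the group not compared, altered only its SE and p. Scan date as a term likewise could not move the difference of DIO+sitagliptin from vehicle. The sign was therefore tested only by the remaining alternatives. The difference of DIO+sitagliptin from vehicle is the sum of the other 2, so its sign follows from theirs. The range was -1.44 to -0.17 for DIO against vehicle (adjusted p 0.737 to 1), -1.19 to -0.45 for DIO+sitagliptin against DIO (0.840 to 1) and -2.18 to -0.94 for DIO+sitagliptin against vehicle (0.476 to 1). The last of these reached an unadjusted p under 0.05 under 5 alternatives, at 0.0438 without normalization, 0.00874 without vehicle 2, 0.0317 without DIO+sitagliptin 1, and 0.0307 and 0.00683 with the replicate block. With the replicate number as a block in the fit of 9 arrays the SE of each difference was 0.56, and within the 6 arrays of DIO+sitagliptin and vehicle it was 0.40 (adjusted p = 0.647). The block changed no call. With scan date as a term that difference was -1.46 ± 0.66 (SE). The moderated F-test of Apoe had adjusted p-values of 0.816 to 1 over 22 alternatives. No probe was called in any comparison under any of these settings, while counts at an unadjusted p under 0.05 ran from 46 to 2350, 16 to 1132 and 291 to 5203 in the same order of comparisons. Of these, the fits without 1 array gave 83 to 2350, 83 to 785 and 328 to 5203. Apoe exceeded the NEGATIVE probes on 9 of 9 arrays under each alternative run. Of the 5 genes nearest to Apoe, 4 remained among the nearest 5 on the arrays of 12 November, with median scaling and by Pearson distance. The mean raw signal of a spot was not run, and the median raw signal was used in its place after seeing the data. It gave -0.69, -0.67 and -1.36.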

Other observations

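The array also carries control features named 3 and 5 for mouse PGK1. On 5 of the 9 arrays (the 3 vehicle arrays, DIO+sitagliptin 1 and DIO+sitagliptin 3) 1 of these features read below the highest NEGATIVE probe, so their ratio is not given there. On DIO+sitagliptin 3 the feature named 5 read 2.88 units, where the highest NEGATIVE probe read 30.1 units. On the other 4 arrays the log2 ratio of 5 over 3 was -0.97 in DIO 1, -2.18 in DIO 2, -0.07 in DIO 3 and -0.0025 in DIO+sitagliptin 2. Both GAPDH features were above the highest NEGATIVE probe on all 9 arrays. On DIO+sitagliptin 1 the GAPDH feature named 3 was only just so, at 52.8 units against 48.6 units. DIO+sitagliptin 3 held 6 kept named genes brighter than Apoe (Duox1, Gm9789, Lhx1, Olfr1307, Olfr166 and Pex11a, named after their values were seen), while the other 8 arrays held at most 2. The odorant receptors among them are known for expression in olfactory neurons.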
